A study of Drosophila melanogaster with 3 samples.

Results

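Odorant (Or), gustatory (Gr) and ionotropic (Ir) receptor genes of Drosophila melanogaster were examined for binding of the zinc finger protein CG11695 in embryos. Members were the protein-coding genes whose symbol is Or, Gr or Ir with a number and letters, together with the odorant co-receptor Orco. There were 180 of them among 13945 protein-coding genes on the 6 chromosome arms of the Ensembl annotation, with 60 Or, 60 Gr and 60 Ir genes. Members whose gene bodies lay within 20 kb of each other were joined into 1 cluster, which gave 121 clusters. Of these, 90 held a single gene and 31 held the other 90 members. The widest gap that was joined lay between Gr59b and Gr59c, at 19110 bp, and the narrowest that was not lay between Gr22f and Gr22e, at 27610 bp.

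Chromatin immunoprecipitation and sequencing (ChIP-seq) had been performed with an anti-GFP antibody on whole embryos, 0 to 24 h old, of a transgenic fly strain that makes CG11695 fused to eGFP. The 3 libraries were labelled as biological replicates and formed 1 group, and no input or untagged library was analysed here. Chromatin was sonicated, with a stated size range of 200 to 800 bp. The deposited peak lists carry no read counts, so the depth behind each peak is unknown. Whole embryos pool all cell types, so a peak in few cells and no peak cannot be told apart by these lists. The embryos span all stages in that window, and the labels give no promoter for the fusion gene and no finer stage.

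Or genes encode membrane proteins of olfactory neurons that form odour-gated ion channels with the shared subunit Orco. Gr genes encode a related family of receptors for sugars, bitter compounds, carbon dioxide and, in some cases, heat. Ir genes derive from ionotropic glutamate receptors and act with co-receptors such as Ir8a, Ir25a and Ir76b in smell, taste, temperature and humidity sensing. Each tuning receptor is active in few sensory neurons, and the neurons of the larva differentiate late in embryogenesis.

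Sequences of 4 peaks beside receptor genes are shown first: those nearest to Or88a and Gr32a, the closest of the Or and Gr families, and those at Gr89a and Gr93d, whose nearest start site is that of the receptor gene. They were read from the RefSeq genome of the same assembly (dm6) and are written 5′ to 3′. Capitals mark AAATAT or its reverse complement ATATTT, a hexamer searched on both strands because it had led a motif count of these peaks in earlier work on the same data. No other motif was searched, and a match is a description of the letters. Each peak window below has 151 bases of the plus strand centred on a summit of the main peak list. The windows are those beside Or88a (chr3R:14108734-14108884), beside Gr32a (chr2L:11113318-11113468), past the 3′ end of Gr89a (chr3R:16497604-16497754) and upstream of Gr93d (chr3R:21849137-21849287).
Or88a peak: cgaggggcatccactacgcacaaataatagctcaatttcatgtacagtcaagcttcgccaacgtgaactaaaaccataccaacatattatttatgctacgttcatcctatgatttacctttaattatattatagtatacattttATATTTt
Gr32a peak: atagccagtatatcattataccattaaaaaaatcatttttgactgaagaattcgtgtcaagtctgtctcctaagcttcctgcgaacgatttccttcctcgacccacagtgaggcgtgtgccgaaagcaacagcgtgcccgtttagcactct
Gr89a peak: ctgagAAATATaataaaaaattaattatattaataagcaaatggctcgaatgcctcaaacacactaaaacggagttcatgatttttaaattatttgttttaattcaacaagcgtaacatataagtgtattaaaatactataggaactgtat
Gr93d upstream peak: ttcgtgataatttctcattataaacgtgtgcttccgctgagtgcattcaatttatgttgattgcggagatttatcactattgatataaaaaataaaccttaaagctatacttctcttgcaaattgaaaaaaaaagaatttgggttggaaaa

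For comparison, the 250 bases before the start site are shown for Gr32a (chr2L:11113764-11114013, plus strand), the receptor gene with the closest summit, for the sugar receptor gene Gr64a (chr3L:4026519-4026768, plus strand), and for the trehalose receptor gene Gr5a (chrX:5680367-5680616, plus strand). The promoter of Orco (chr3R:5412407-5412656, minus strand) is shown because its product is needed by nearly all tuning Or proteins.
Gr32a promoter: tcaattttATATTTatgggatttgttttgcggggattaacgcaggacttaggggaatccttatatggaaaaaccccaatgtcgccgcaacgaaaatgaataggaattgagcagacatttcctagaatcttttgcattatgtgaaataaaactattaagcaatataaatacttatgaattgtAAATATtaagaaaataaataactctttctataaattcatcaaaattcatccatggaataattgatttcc
Gr64a promoter: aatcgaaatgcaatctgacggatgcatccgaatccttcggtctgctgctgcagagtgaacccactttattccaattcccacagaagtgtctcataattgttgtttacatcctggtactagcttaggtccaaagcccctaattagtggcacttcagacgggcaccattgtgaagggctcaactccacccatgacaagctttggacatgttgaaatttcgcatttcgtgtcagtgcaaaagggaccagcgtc
Gr5a promoter: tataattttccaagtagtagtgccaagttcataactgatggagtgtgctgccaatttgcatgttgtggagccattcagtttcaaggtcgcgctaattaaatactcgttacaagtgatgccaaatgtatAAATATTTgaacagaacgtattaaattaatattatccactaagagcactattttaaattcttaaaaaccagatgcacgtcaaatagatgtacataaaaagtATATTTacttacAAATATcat
Orco promoter: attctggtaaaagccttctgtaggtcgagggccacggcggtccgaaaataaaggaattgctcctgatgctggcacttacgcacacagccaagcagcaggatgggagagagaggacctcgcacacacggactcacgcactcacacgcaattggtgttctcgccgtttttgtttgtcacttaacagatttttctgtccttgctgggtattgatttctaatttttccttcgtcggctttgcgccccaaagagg

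None of these 4 promoter windows held a main-list summit. The Gr5a promoter held 4 matches to the hexamer and the Gr32a promoter 2, while the Gr64a and Orco promoters held none. Over all members, 81 of 180 promoters (45%) held a match, with 43.3% of Or, 50% of Gr and 41.7% of Ir promoters. The share was 50.6% over the same 250 bases of all protein-coding genes and 57.6% over the 2257 genes with a main-list summit within 500 bp. Among the 4770 windows of 151 bases around main-list summits, 43.9% held the hexamer, and the windows at Or88a and Gr89a were among them. A window of 250 bases has more room for a match than one of 151. This 43.9% can therefore not be set against the promoter shares, and no background of 151 bases was counted. The median GC content of the promoters was 38.0% in members and 37.2% in all protein-coding genes.

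No receptor gene had a thresholded summit within 500 bp of a start site. In the main list, the authors' conservative list of 4770 peaks that passed a cut on the irreproducible discovery rate (IDR, the estimated share of peaks that do not repeat between compared sets), a summit lay within 500 bp of a transcription start site (TSS) for 0 of 180 members, against 16.2% of all protein-coding genes. The 180 genes are the whole set, so their share is 0, and the limits that follow only show how coarse such a count is. Were the genes independent draws, with 3 counts as the limit, a count of 0 among 180 would allow a share of up to 1.67%, and 0 among the 60 genes of a family up to 5%. Neighbours are not independent, and by the same rule 0 among the 121 clusters would allow up to 2.48%. The same window held 0 of 180 members in the own list of replicate 1, against 12.5% of all protein-coding genes. It held 0 of 180 in the own list of replicate 2, against 10.2%, and 0 of 180 in the own list of replicate 3, against 10.7%. Most members have a single annotated TSS. A gene with more TSSs has more windows and more chances of a near summit. The number of TSSs was not matched between members and all protein-coding genes. Members share clusters and TSSs and were chosen with earlier results of these data known, so no test was made over them.

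The gene bodies were also empty of summits. The 180 members cover 472 kb, and 0 of them held a main-list summit inside the body, against 12.9% of all protein-coding genes. Over all protein-coding gene bodies the main list had 34.7 summits per Mb, and the own lists had between 19.5 per Mb (replicate 3) and 24.4 per Mb (replicate 1). Member bodies held 0 summits in each own list and in the pooled list. Counting any base of a main-list peak instead of its summit, 1 body was reached, that of Ir31a by 109 bp at its 3′ end, and 1 start site had a peak within 500 bp, that of Gr32a with a peak edge 432 bp away. Member bodies were shorter, with a median of 1691.5 bp against 2166 bp for all protein-coding genes. In total, the 13945 protein-coding genes cover 89953 kb and the 180 members 472 kb. A share of genes with a summit in the body depends on body length, and the count per Mb is the closer comparison. Of the 472 kb, Ir41a alone covers 104437 bp and Ir40a 24851 bp, so the count per Mb leans on these long genes. Ir41a is also the member farthest from any main-list summit, at 809482 bp.

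**Figure D1:**
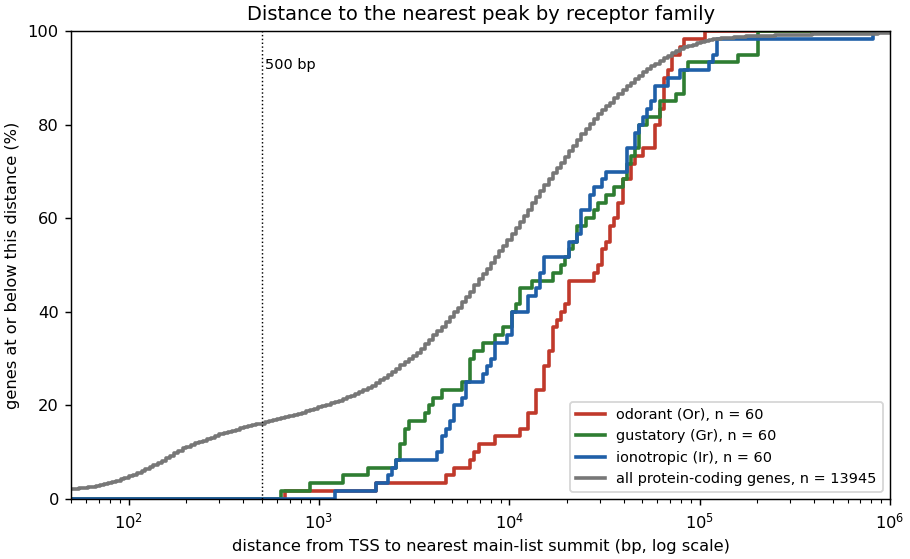
Share of genes (percent, y axis) whose nearest main-list summit lies at or below a distance (bp, log scale, x axis), for 60 Or, 60 Gr and 60 Ir genes and 13945 protein-coding genes; the dotted line marks 500 bp. The 3 receptor curves leave 0 only beyond the dotted line, where the curve of all protein-coding genes has reached 16.2%, and the Or curve lies lowest at 10 kb, at 13.3%.

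Peaks lay farther from receptor genes than from protein-coding genes at large, and among the 3 families farthest from Or genes. The median distance from a TSS to the nearest main-list summit was 20193.5 bp for members, against 7873 bp for all protein-coding genes, a ratio of 2.56. By family it was 29139 bp for Or, 18527 bp for Gr and 15029 bp for Ir genes. In other gene families it was 15402 bp for cuticular protein, 13924 bp for odorant-binding protein and 11599 bp for rhodopsin genes. For pheromone and lipid co-factors it was 7473.5 bp. A distance like that of Ir genes was thus not particular to receptor genes. A summit within 10 kb was found for 54 members (30%), against 55.8% of all protein-coding genes, and these were 8 Or, 23 Gr and 23 Ir genes. At the far end, 38 members (21.1%) had no summit within 50 kb, against 8.88% of all protein-coding genes.

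Each replicate's own list gave the same order of members and all protein-coding genes. The median distance of members was 24179.5 bp in replicate 1, 33658 bp in replicate 2 and 31706.5 bp in replicate 3, against 11230, 13793 and 14094 bp for all protein-coding genes. The means over replicates were 29848 ± 5005 bp for members and 13039 ± 1574 bp for all protein-coding genes (SD, n = 3), so the ranges did not overlap. The Or genes had the highest family median in every replicate, at 33006.5, 45221.5 and 52473.5 bp. Gr genes averaged 23446.5 ± 2664 bp and Ir genes 25730 ± 2981 bp over the own lists (SD, n = 3), a difference smaller than either SD. The Ir median was above the Gr median within each replicate, at 22453.5 against 21277.5 bp, 28281 against 22641.5 bp and 26455.5 against 26420.5 bp, and below it in the main list. Odorant-binding protein genes had medians of 16644, 27470.5 and 26830.5 bp in replicates 1, 2 and 3. Those of cuticular protein genes were 18103, 21150 and 21269 bp, and those of rhodopsin genes 11613, 11616 and 11590 bp. A summit within 10 kb was found for 23.3% ± 1.92 of members and 43.4% ± 3.13 of all protein-coding genes in the own lists (SD, n = 3).

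**Figure D2:**
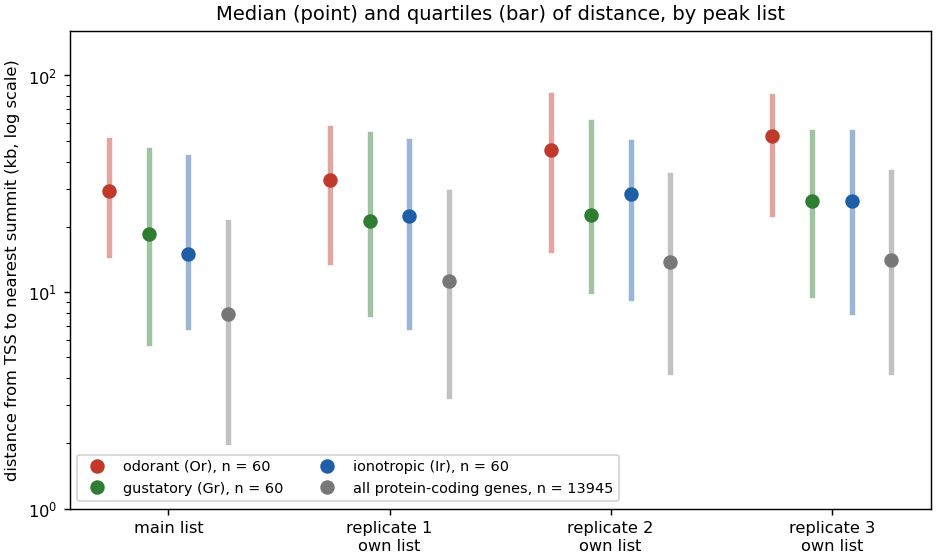
Distance from a TSS to the nearest summit (kb, log scale) in the main list and in the own list of each replicate; points are medians and bars span the quartiles over genes, for 60 Or, 60 Gr and 60 Ir genes and 13945 protein-coding genes. All 3 receptor medians lie above the median of all protein-coding genes in each list, and the Or median is the highest in each.

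Receptor genes are set apart from other genes more often than usual, so the comparison was repeated among isolated genes. No other protein-coding TSS lay within 1000 bp of a TSS for 145 of 180 members (80.6%), against 57.1% of all protein-coding genes. Of these 145 members 0 had a main-list summit within 500 bp, against 11.1% of the 7960 isolated protein-coding genes. The median distance was 25240 bp for isolated members, against 10805.5 bp for isolated protein-coding genes. A TSS of a gene outside the families lay within 1000 bp for 23 members.

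Members lie as follows on the arms, with 31 on 2L, 46 on 2R, 35 on 3L, 43 on 3R and 25 on X, and none on 4. The median member distance was above that of all protein-coding genes on each of these arms. It was highest on 2L, at 38533 bp for members against 8491 bp for all protein-coding genes, and lowest on 3R, at 14229 bp against 7905 bp.

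Among the co-receptors, distances ranged from 2548 bp for Ir25a to 29258 bp for Ir76b. Ir25a, a subunit of many olfactory, cool-sensing and humidity-sensing Ir complexes, stood beside the strongest of the peaks nearest to the 5 closest Ir genes. That summit had a signal of 870.2, rank 50 of 4770, and lay 151 bp from the TSS of its upstream neighbour tank. The own lists placed it 2549, 2560 and 2566 bp from the Ir25a TSS in replicates 1, 2 and 3. Orco was 16251 bp from its nearest main-list summit, at CG1172, with 16243, 16288 and 16250 bp in the own lists. The acid co-receptor gene Ir8a was 14840 bp from an intronic peak of CG17754 that was in none of the own lists, where its nearest summits were 34119, 34406 and 34094 bp away.

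Among Or genes, Or88a, a pheromone receptor gene, was the one with a main-list summit within 1000 bp, and 3 of 180 members had one, against 19.6% of all protein-coding genes. The summit lay 636 bp upstream of its TSS, with a signal of 269.6 and rank 672, and 488 bp from the TSS of the divergent gene CG12402. It repeated in every own list, at 606, 658 and 614 bp. The next Or genes were Or85f at 1975 bp, Or43b at 4507 bp, Or83a at 4978 bp and Or10a at 5966 bp. The peak beside Or85f lay 112 bp from the TSS of CG34117, and the Or10a peak lay in an intron of Gs2, a glutamine synthetase gene. Or10a shares a TSS with Gr10a, so both have the same distance.

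The other pheromone receptor genes had no main-list summit within 10 kb. Or47b was 13454 bp away, Or65a 57713 bp and Or67d, the receptor for cis-vaccenyl acetate, 64519 bp. The geosmin receptor gene Or56a was at 32816 bp. The 6 food odour receptor genes ranged from 12527 bp for Or85a to 69854 bp for Or83c, with a median of 40406.5 bp, and Or22a, tuned to fruit esters, was at 58957 bp. The 3 farthest Or genes were Or13a at 103489 bp, Or19b at 79347 bp and Or98a at 76849 bp.

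Gr32a, a bitter and pheromone taste receptor gene, had the closest main-list summit of all members, 621 bp upstream of its TSS. It had a signal of 152.0 and rank 1734 and lay 332 bp from the TSS of Idua, the neighbouring lysosomal enzyme gene. Replicates 1 and 3 placed it at 721 and 747 bp, while the nearest own-list summit in replicate 2 was 7178 bp away. The other broadly expressed bitter receptor genes ranged from Gr89a at 1280 bp through Gr66a at 7039 bp and Gr33a at 34534 bp to Gr39a at 71940 bp. The Gr89a summit lay past the 3′ end of the gene, with a signal of 245.7, and the own lists held it at 1270, 1297 and 1279 bp. It was 1 of 3 peaks nearest to members whose own nearest TSS was that of a receptor gene; the others lay 2553 bp from Gr93d and 3476 bp from Gr93a, and all 3 were intergenic.

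The 9 sugar receptor genes had a median main-list distance of 3750 bp, and 6 of the 9 share 1 peak. Their medians in the own lists of replicates 1, 2 and 3 were 8249, 11585 and 15519 bp. Those of the bitter receptor genes were 7038, 34457 and 7022 bp, with 7039 bp in the main list, so the order of the 2 groups differed between lists. That peak lay 885 bp upstream of Gr64a and 127 bp from the TSS of CG11594, with a signal of 75.2 and rank 3950. It was in none of the own lists, where the nearest summits to Gr64a were 9768, 9749 and 22517 bp away. Along the cluster the main-list distance was 2721 bp for Gr64b and Gr64c, 6178 bp for Gr64d, 6257 bp for Gr64e and 9915 bp for Gr64f, which encodes the partner subunit of many sugar receptors. Gr5a, the trehalose receptor gene, was 2543 bp from a peak in an intron of its neighbour Tre1, with 2543, 2551 and 2507 bp in the own lists. Gr61a, a glucose receptor gene, was 3750 bp from a peak at CG13901, with 3756, 3706 and 3707 bp. Gr43a, the fructose receptor gene, was 11236 bp from a summit at a TSS of Dscam1. Its own-list distances varied, at 11326, 64006 and 2947 bp in replicates 1, 2 and 3.

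**Figure D3:**
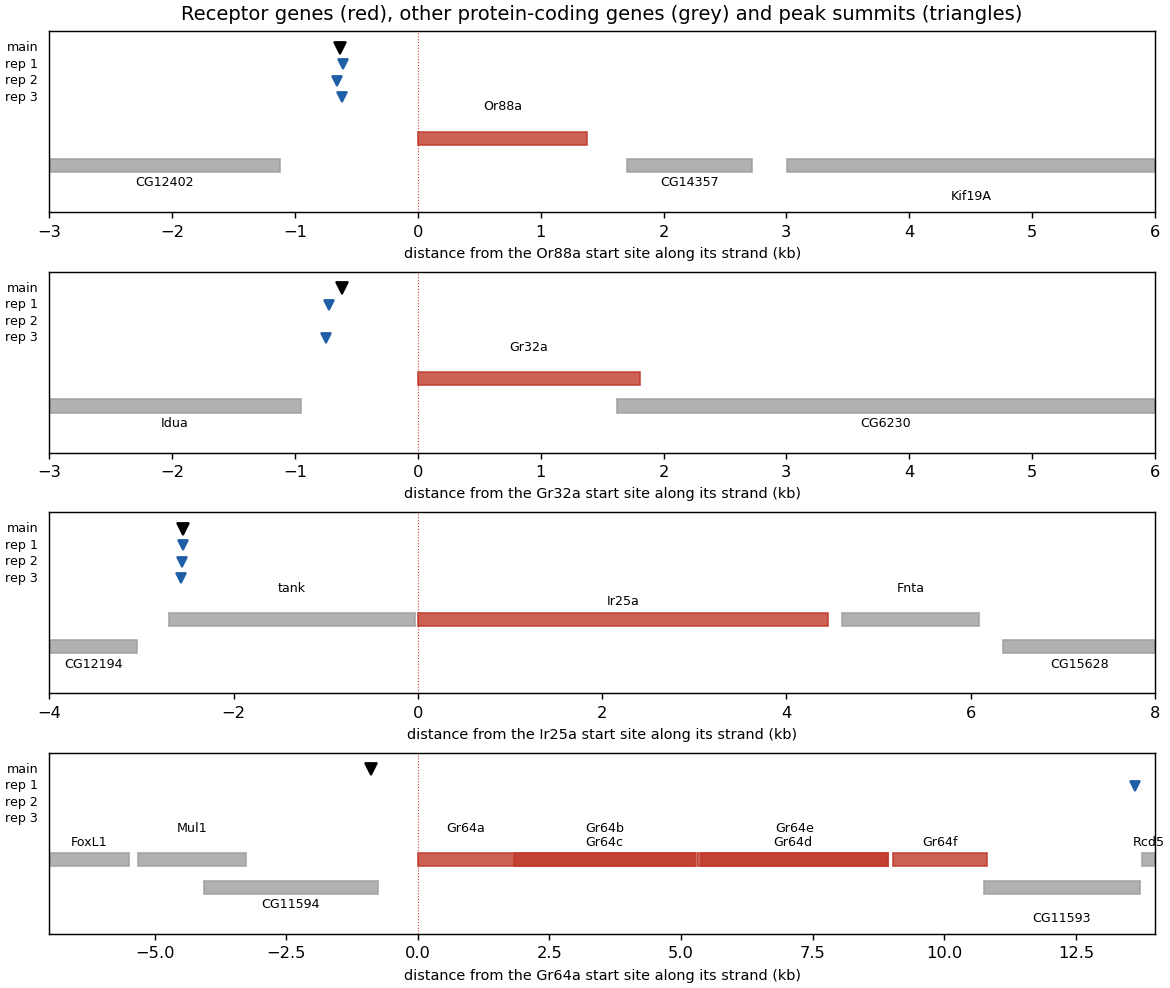
Genes and summits around Or88a, Gr32a, Ir25a and the Gr64 cluster, as distance (kb) from the start site of the named gene along its strand; red boxes are receptor genes, grey boxes other protein-coding genes (same strand above, opposite strand below), black triangles main-list summits and blue triangles own-list summits of replicates 1 to 3. Summits sit between Or88a and CG12402 in all 4 lists, at the far end of tank beside Ir25a in all 4, and at Gr64a in the main list alone.

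The carbon dioxide receptor genes, whose products work as a pair, stood 4242 bp (Gr63a) and 38533 bp (Gr21a) from a main-list summit. In the own lists of replicates 1, 2 and 3, Gr63a was at 32066, 4237 and 69848 bp. Gr21a was at 38479, 38449 and 60624 bp. Gr97a was 1764 bp from an intronic summit of CG5521 that 1 own list held. The heat and warmth receptor gene Gr28b was at 8275 bp. The farthest Gr genes were Gr36a, Gr36b and Gr36c at 202255, 200101 and 198535 bp, and the own lists placed Gr36a at 202255, 202258 and 202295 bp. The 5 genes of the Gr22a to Gr22e cluster were between 43018 and 47574 bp from the nearest main-list summit and held no ranked-list summit within 500 bp of a TSS.

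No Ir gene had a main-list summit within 1000 bp. Ir31a, an antennal receptor gene, was the closest at 1199 bp from a summit at CG17768, with own-list distances of 1205, 7833 and 1309 bp. Ir94c stood at 1923 bp, Ir68b at 2213 bp and Ir48c at 2326 bp, and all 3 own lists held each of those summits. The Ir68b summit lay 31 bp from the TSS of yps, an RNA-binding protein gene, and the Ir48c summit in an intron of ths, a fibroblast growth factor gene. Among the temperature and humidity genes, Ir21a was at 4548 bp, Ir68a at 9966 bp, Ir93a at 14229 bp and Ir40a at 57907 bp. The acid and amine receptor genes ran from Ir76a at 4841 bp through Ir75a at 25240 bp, Ir92a at 25869 bp, Ir64a at 27288 bp and Ir84a at 67076 bp to Ir41a at 809482 bp.

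Ir41a, the polyamine receptor gene on 2R, was the farthest member in the main list and in each own list. Its distance was 864625 bp in replicate 1, 1159223 bp in replicate 2 and 1100208 bp in replicate 3. The nearest main-list summit lay 169 bp from a TSS of ap, a LIM-homeodomain gene, and was in none of the own lists. Among Ir genes, Ir94f and Ir94g followed at 119727 and 117729 bp.

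A main-list summit fell within the span of a cluster, extended by 500 bp, for 4 of 121 clusters, and 3 of these were the single genes Ir31a, Ir68b and Gr89a. In the own lists 4, 3 and 4 clusters held a summit. No share over like spans of other genes was counted, so these counts cannot be called low or high. The largest clusters, Gr64a to Gr64f on 3L and Ir7b to Ir7g on X with 6 genes each and Gr22a to Gr22e on 2L with 5, held none in the main list. In the Ir7 cluster, distances ran from 4257 bp at Ir7g to 21949 bp at Ir7b, all to 1 peak 132 bp from the TSS of Acat1.

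Neighbours within a cluster often shared their nearest peak, so their distances are not independent values. Or65a, Or65b and Or65c stood 57713, 62714 and 64710 bp from 1 peak at Ldh, the lactate dehydrogenase gene, with a signal of 416.7 that all 3 own lists held. Or22a and Or22b stood 58957 and 56751 bp from a peak in an intron of haf, also held by all 3. The acid receptor genes Ir75a, Ir75b and Ir75c stood 25240, 22968 and 20327 bp from a peak at CG5567 that 1 own list held. The leg and taste genes Ir52a to Ir52d ran from 11996 to 5046 bp from a peak at Pgant1, a glycosyltransferase gene, held by 2 own lists. Ir94a, Ir94b and Ir94c, at 7950, 4128 and 1923 bp from an intronic peak of CG42390 held by all 3, were much closer to a peak than Ir94d and Ir94e, at 43819 and 46520 bp.

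Many members lay in long stretches without a main-list peak. The main list leaves 4764 gaps between neighbouring summits, and 107 of them hold members. The median gap that holds a member was 91484 bp, against 9114 bp for all gaps; a long gap holds more genes of any kind, so the share of genes is the closer comparison. Gaps over 100 kb held 99 members (55%), against 25.4% of protein-coding genes. The longest gap with members was 560503 bp, with Gr36a to Gr36c among 39 protein-coding genes. Stretches beyond the first or last summit of an arm were not counted as gaps. This leaves out Ir41a, which is 809482 bp from its nearest main-list summit. Next came 365342 bp with Or35a, and 355586 bp with Gr39a and Gr39b, where 111 of the 126 protein-coding genes were histone genes.

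The peaks nearest to members mostly lay nearest to the TSS of another gene. There were 121 distinct nearest peaks, of which 70 were within 500 bp of a TSS (57.9%), 37 in introns, 14 intergenic and 0 in exons. Among the 11688 protein-coding genes with no summit within 500 bp, the nearest peak was at a TSS for 58.6%, in an intron for 28.0% and intergenic for 10.3%; for members these shares were 56.1%, 33.3% and 10.6%. None of the 70 promoter peaks had a receptor TSS as its nearest TSS. The median signal of the 121 peaks was 114, against 120 for all main-list peaks. All 3 own lists held 29.8% of the 121, against 36.8% of all main-list peaks, and 26 of the 121 were in none.

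Below the IDR threshold, weak peaks were found at some receptor genes. The ranked list behind the main list, which keeps peaks that failed the threshold, had a summit within 500 bp of a TSS for 62 of 180 members (34.4%), against 74.8% of all protein-coding genes. These were 13 Or, 30 Gr and 19 Ir genes. The percentile of the strongest such peak, by signal rank in the list, had a median of 51.4 for these members, against 85.6 for all protein-coding genes with one. A peak at percentile 80 or above was found for 10 members (5.56%), against 44.3% of all protein-coding genes. Member bodies held 208 ranked summits, or 441 per Mb, against 872 per Mb over all protein-coding gene bodies, with 366 per Mb in Or, 850 in Gr and 314 in Ir bodies. Long genes without a ranked summit in the body, Ir41a (104437 bp) and Ir40a (24851 bp), make up much of the 267 kb of Ir bodies. They lower the values per Mb of Ir genes and of all members, so the order of Or and Ir by this measure depends on them.

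The ranked own lists repeated this split. They had a summit within 500 bp for 56, 58 and 45 members in replicates 1, 2 and 3, a share of 29.4% ± 3.89, against 67.6% ± 2.26 of all protein-coding genes (SD, n = 3). By family the shares were 22.2% ± 9.77 for Or, 41.1% ± 3.47 for Gr and 25% ± 8.33 for Ir genes (SD, n = 3); those of Or and Ir overlapped. The median percentile was 46.7 ± 1.73 for members and 81.5 ± 1.76 for all protein-coding genes (SD, n = 3). A ranked summit in all 3 own lists was found for 16 members (8.89%), against 49.1% of all protein-coding genes, and in none for 84 members (46.7%), against 15.7%.

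**Figure D4:**
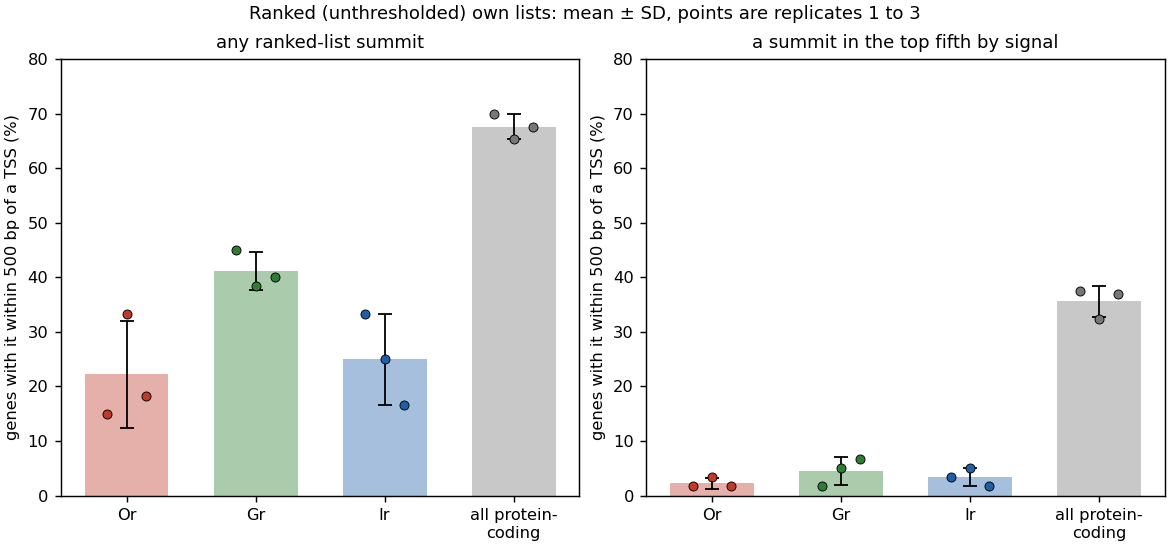
Share of genes (percent) with a ranked own-list summit within 500 bp of a TSS (left), or with one at percentile 80 or above by signal (right), for 60 Or, 60 Gr and 60 Ir genes and 13945 protein-coding genes; bars are means over 3 replicates, error bars SD and points single replicates. Points of all 3 receptor families lie below those of all protein-coding genes in both panels, and on the right the means are 2.22%, 4.44% and 3.33% for Or, Gr and Ir against 35.6% for all protein-coding genes.

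Of the members with a ranked summit in all 3 own lists, those with the highest mean percentile were Ir60e, Ir25a, Gr97a, Or65a and Gr39a. Ir60e had percentiles of 68.6, 85.5 and 90.7 in replicates 1, 2 and 3. Ir25a had 68.5, 87.1 and 79.0, and Gr97a 55.9, 81.2 and 83.9. Replicate 1 gave the lowest value for each of these 3 genes. A TSS of a gene outside the families lay 322 bp from that of Ir60e and 445 bp from that of Gr97a. A ranked summit within 500 bp of those start sites can therefore also lie at the neighbour. For Ir25a, Or65a and Gr39a the nearest such TSS was 2699, 29665 and 7795 bp away. In the ranked list the lowest global IDR at a member was 0.215, for the Ir25a peak 282 bp from its TSS, followed by 0.271 for Gr21a and 0.273 for Ir60e, all above the threshold of 0.01. By group, a ranked summit was at 7 of 9 sugar (77.8%) and 3 of 4 co-receptor genes (75%), shares near the 74.8% of all protein-coding genes. Among these, Gr64d and Gr64e share a TSS and 1 ranked peak. The own ranked lists had a summit at Gr64d in 0 replicates and at Gr64e, Gr64f and Ir8a in 1 each. Gr5a, Gr43a and Ir76b had one in 2, and Gr61a, Gr64c and Ir25a in 3. A ranked summit was at 2 of 2 carbon dioxide, 1 of 1 geosmin, 2 of 5 bitter, 2 of 5 temperature and humidity, 1 of 4 pheromone, 2 of 6 acid and amine and 0 of 6 food odour receptor genes. Of these genes, the geosmin receptor gene Or56a had a summit in 0 of the own ranked lists. Gr21a, Gr63a, Ir21a, Ir68a and Ir92a had one in 2, and Gr39a, Gr89a, Or65a and Ir76a in 3.

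Main-list summits within 500 bp of a TSS were also counted at other genes linked to chemosensation and at comparison families. Among odorant-binding protein genes 1 of 52 had one, Obp99b, with a signal of 148 in the main list, and 2 own lists held it. Among pheromone and lipid co-factors 1 of 22 did, the CD36-type gene Snmp2, with a signal of 66.5 that was in none of the own lists. Taste, touch and temperature channel genes had 0 of 10. In the comparison families, rhodopsin genes had 0 of 7 and cuticular protein genes 0 of 95. Of 16 olfactory neuron fate factors 1 did, Xbp1 (signal 249, in all 3 own lists), while the own lists of replicates 1, 2 and 3 had a summit at 3, 1 and 2 of the 16, against 12.5%, 10.2% and 10.7% of all protein-coding genes. Of 10 dREAM complex genes 2 did, Dp (signal 427, in all 3) and mip40 (signal 74.9, in none). The dREAM complex, which holds Myb, E2F and Rbf proteins, is known in the fly to act on expression of the carbon dioxide receptor genes. These counts are descriptions of small lists, beside 0 of 180 receptor genes and 16.2% of all protein-coding genes. In the own lists of replicates 1, 2 and 3, cuticular protein genes had 1, 0 and 0 of 95. Ranked-list summits lay within 500 bp for 27.3% of pheromone and lipid co-factors and 48.1% of odorant-binding protein genes. The shares were 57.1% for rhodopsin, 64.2% for cuticular protein and 60% for channel genes. They were 81.25% for fate factors and 100% for dREAM genes, beside 34.4% of members and 74.8% of all protein-coding genes.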

How the data were processed

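The authors deposited narrowPeak lists from an IDR procedure on dm6, per the labels and file notes: a thresholded and a ranked list for each replicate and for the pooled or pairwise sets. How reads were aligned and peaks called is not given in the sources used here. In the deposited lists, the score column is scaled from the IDR, the signal column is the peak's own strength on a scale that is not stated, and 1 column holds −log10 of the global IDR as the authors wrote it. Signal served for ranks inside a list and was not compared between lists. The main list (4770 peaks) matched the comparison of replicates 1 and 3 by identical records, and 99.9% of its records were in the pooled ranked list, so its peaks are records of the pooled set. The own lists held 3404, 2774 and 2716 peaks. Replicate numbers came from the labels, which call them biological replicates without naming separate embryo collections, so SDs may hold technical spread alone.

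With Python 3.11.15, pandas 2.3.3 and numpy 2.4.6, 1 record per summit was kept, and distances were taken from every annotated TSS (Ensembl release 115) to the nearest summit. Windows, clusters and merging were tested on simulated positions. A percentile is the rank of a peak's signal within its ranked list. Members, gene lists and the searched hexamer were chosen with earlier results of these data known. Named genes were members with a summit within 1000 bp or in the body, members of the functional groups, the 5 closest and 3 farthest of each family, the largest clusters, the highest ranked peaks in the own lists, and pathway genes with a summit within 500 bp, with the genes at the nearest peaks. Alternatives were other windows, TSS choice, merging, a stricter IDR, other lists, other linkage and leaving out replicates. Promoter windows that overlapped annotated untranslated regions were not printed. Pseudogenes were not counted. The peak in 1 further cluster is not reported here.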

Additional observations from a re-analysis of the deposited data

How the results depend on the processing

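Of 69 alternative settings over 8 results, 51 left the value within the spread between replicates or the count near its main value. The 0 members within 500 bp of a TSS stayed 0 in the pooled list, every pairwise and own list, at a global IDR of at most 0.001 and with summits merged within 250 bp. It became 3 with a window of 1000 bp, against 19.6% of all protein-coding genes, 8 (4.44%) with 2000 bp, against 24.9%, and 1 (Gr32a, whose peak edge lay 432 bp away) when any base of a peak counted. The mean own-list share became 0.926% at 1000 bp, against 13.6% of all protein-coding genes, and 2.96% at 2000 bp, against 17.6%. With any base of a peak, 1 gene body (Ir31a, by 109 bp) held a peak in place of 0.

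The median member distance of 20193.5 bp was 34402 bp at a global IDR of at most 0.001 (14767 bp for all protein-coding genes), 15150.5 bp in the pooled list (6124 bp), 33658 and 31706.5 bp in the own lists of replicates 2 and 3, and 25240 bp for isolated members. Leaving replicate 1 or replicate 3 out of the IDR comparison gave 26509.5 and 16396.5 bp. The share of members with a ranked summit within 500 bp, 34.4%, was 18.9% at 200 bp, 51.1% at 1000 bp, 60% at 2000 bp (55.1%, 82.0% and 86.1% of all protein-coding genes), 40% in the pooled ranked list and 25% in the ranked own list of replicate 3. With the most upstream TSS alone the mean of the median percentile was 43.9, against 46.7. That setting was run for members only, so it gives no value for all protein-coding genes. The causes were not tested. The clusters with a summit numbered between 3 and 5 under every alternative run, with no background of like spans. No paired analysis was possible because there is 1 group of samples, so no sample of another group to pair with. Within replicates 1, 2 and 3, the median member distance was 2.15, 2.44 and 2.25 times that of all protein-coding genes. The unknown read depth and the lack of an input library limit what a missing peak shows.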
